A study of Mus musculus with 6 samples.

Results

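The 9 genes followed across the arrays respond to androgen in luminal cells, the secretory epithelium of the prostate, and are Fkbp5, Tmprss2, Ndrg1, Homer2, Slc45a3, Acpp, Steap4, Srd5a1 and Srd5a2. Members were all non-control probes whose gene name, or whose symbol looked up by RefSeq accession, was one of these. They came to 9 of 23133 named genes on the array and to 16 of 41174 probes. Fkbp5 and Acpp had 3 probes each, Tmprss2, Homer2 and Steap4 had 2 each, and the other members had 1 each. Slc45a3 and Steap4 stand in the files under the older names 2210413P12Rik and Tnfaip9.

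Androgen enters the cell as testosterone and is reduced by steroid 5-alpha-reductases to dihydrotestosterone, which binds a nuclear receptor. The receptor is held ready by chaperones, moves to the nucleus and switches on secretory, metabolic and feedback genes, often from enhancers far from the start of the gene. Luminal cells of the rodent ventral prostate depend on this pathway for their secretions. Several members also answer to other signals: Fkbp5 to glucocorticoids, Ndrg1 to low oxygen and Steap4 to inflammation.

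RNA was taken from the ventral prostate of mice of FVB background and hybridized to 6 two-colour arrays in 3 groups of 2. The fl26 group is a line transgenic for 15-LOX2, a lipoxygenase that oxidizes polyunsaturated fatty acids, taken at 2.5 months. The svb9 group is a line transgenic for splice variant b of 15-LOX2, also at 2.5 months, and the old group is wild type at 15 months. On every array the other channel held wild type RNA from mice of 2.5 months, called young wild type here. The group was always labelled red (Cy5) and young wild type always green (Cy3), so dye and group cannot be told apart in a comparison with young wild type. Between red groups the dye is shared. The sample labels describe pools of 3 mice while lobes combined from 6 mice are given in the design text. The design text calls the duplicates independent sets of samples, and it is not given in the sources used here whether the young wild type RNA of different arrays came from the same pool. Each transgene is represented by a single line, and the promoter that drives it is not given in the sources used here. Fewer luminal cells and less RNA per cell cannot be told apart in whole tissue.

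Signal limited what could be measured. Red signal was well above background for 27151 and 27833 probes on array 1 of fl26 and of svb9, for 13600 to 17623 on array 2 of each group, and for 3219 on old array 1. Green signal was well above background for 24837 to 30382 probes. Of the 16 member probes, 14 and 12 were well above background in red in fl26, 13 and 10 in svb9, and 2 and 9 in old. Green signal showed 13 or 14 of them on every array. No member spot was saturated or marked as an outlier, so all 6 arrays entered the value of every member. All 17 luminal markers (keratins, claudins and lineage factors) were tested. Their median log2 ratio was -0.12 and 0.08 in fl26, 0.04 and 0.07 in svb9, and 0.47 and 0.20 in old. In red, 17 of 17 were well above background on each fl26 and svb9 array, against 13 and 16 in old. Of 10 markers of the seminal vesicle and other lobes, 3 were tested. Msmb, a prostate secretion gene that is also on the list of androgen-responsive genes here, was bright, with red intensities of 23077 to 33845 on the 5 arrays where its spot was kept, saturated on array 1 of fl26 and of svb9. Its log2 ratios were -1.16 and 0.36 in fl26, -1.22 and 0.38 in svb9, and 0.30 on old array 2. Svs5 and Tgm4 were dim, at red intensities of 60.9 to 75.8 and 72.7 to 139, and the part of tissue from other lobes in the results was not tested.

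A probe was tested when some group had it well above background, in 1 channel, on each of its arrays. This kept 13 member probes and 8 member genes. The probe of Srd5a1, the third probe of Acpp and the second of Steap4 were left untested as too dim. The brightest probe of a gene is called its first probe and stands for the gene. Values below, unless called levels, compare a group with young wild type on the same array as a log2 ratio, so 1 is a doubling and 0 is no difference. A level is the normalized log2 intensity of 1 channel, and is set only against the same probe elsewhere.

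Promoter sequence is shown for Tmprss2 and Slc45a3, the members whose ratios in fl26 lay furthest from 0 on either side, and for Fkbp5, a feedback gene of the receptor, because androgen-regulated genes are often searched for receptor elements at their start. Each is the 250 bases upstream of the annotated start from RefSeq (GRCm38.p6), 5' to 3' on the strand of the gene. Capitals mark matches to motifs searched on both strands. The GC box was searched as GGGCGG. The box bound by NF-Y was searched as its core letters CCAAT. The box near the start bound by TBP was searched as TATAAA. The Tmprss2 window lies at chr16:97611196-97611445 on the minus strand, the Slc45a3 window at chr1:131962665-131962914 on the plus strand and the Fkbp5 window at chr17:28486150-28486399 on the minus strand.
Tmprss2: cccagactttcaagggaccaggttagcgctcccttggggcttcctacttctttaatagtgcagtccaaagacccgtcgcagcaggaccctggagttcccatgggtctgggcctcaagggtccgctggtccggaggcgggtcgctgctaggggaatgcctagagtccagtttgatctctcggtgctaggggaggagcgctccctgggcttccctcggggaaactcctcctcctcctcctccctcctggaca
Slc45a3: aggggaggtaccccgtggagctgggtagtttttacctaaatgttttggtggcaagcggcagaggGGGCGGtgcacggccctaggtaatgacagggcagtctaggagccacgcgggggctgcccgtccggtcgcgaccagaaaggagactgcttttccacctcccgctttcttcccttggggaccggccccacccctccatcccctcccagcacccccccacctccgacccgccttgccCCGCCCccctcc
Fkbp5: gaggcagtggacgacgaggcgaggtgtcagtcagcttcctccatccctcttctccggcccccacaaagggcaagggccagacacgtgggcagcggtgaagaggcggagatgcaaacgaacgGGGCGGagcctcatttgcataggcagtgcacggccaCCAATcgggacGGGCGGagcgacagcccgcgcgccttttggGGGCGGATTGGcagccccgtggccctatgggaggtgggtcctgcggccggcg

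In the windows shown, Fkbp5 held 3 GC boxes and 2 CCAAT boxes, Slc45a3 held 2 GC boxes, and Tmprss2 held none of these letters. The other Slc45a3 window held 2 CCAAT boxes, 1 TATA box and 0 GC boxes. Windows were found for 8 of the 9 members, 10 windows in all, since Homer2 and Slc45a3 have 2 each. The full receptor element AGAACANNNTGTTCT was in 0 of the 10 windows, and its half-sites AGAACA and TGTTCT, searched on both strands, were in 0. Over all 32841 windows of this length, 0.00913% held the full element and 16.1% a half-site. GC boxes were in 32.7% of windows, CCAAT boxes in 33.9% and TATA boxes in 12.4%. The search covers these letters in this window alone.

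The first probe of Tmprss2, a membrane serine protease gene whose human counterpart is often fused to ERG in prostate cancer, had log2 ratios of 0.36 and 0.41 in fl26, 0.10 and 0.04 in svb9, and 0.38 and 0.43 in old. The fl26 and old arrays lay together and all 4 lay above both svb9 arrays. Levels in young wild type were nearly constant, from 9.41 to 9.52 over 6 arrays (SD 0.04). The red level was 9.86 ± 0.10 (SD, n = 2) in fl26, 9.85 ± 0.08 in old and 9.55 ± 0.03 in svb9, against 9.47 ± 0.04 (SD, n = 6) in young wild type. Old and fl26 differed by less than their spread, and svb9 lay next to young wild type.

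On average Tmprss2 was 1.30-fold higher in fl26 than in young wild type (log2 0.38 ± 0.07, limma standard error, n = 2). In old it was 1.32-fold higher (log2 0.41 ± 0.07), and in svb9 the log2 ratio was 0.07 ± 0.07. These values did not pass the limma test over all probes, with adjusted p = 0.229 in fl26 and 0.189 in old. Over all tested probes, arrays with the same number tended to deviate together, but for Tmprss2 array 2 was higher in fl26 and old and lower in svb9. With the number as a term in the limma fit both values passed, with adjusted p = 0.0395 in fl26 and 0.0316 in old. That term left the Tmprss2 means unchanged and their standard errors at 0.07, while calls over all probes rose from 14 to 1001 in fl26 and from 0 to 1211 in old. With the date of feature extraction as a term the 2 Tmprss2 values did not pass, with limma adjusted p of 0.128 and 0.211. Normalized by centring on the median alone, without loess, the old value turned to -1.76, as described with the scaling below.

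Between the lines, Tmprss2 was 0.31 ± 0.10 higher on the log2 scale in fl26 than in svb9 (limma adjusted p = 0.999951). Old exceeded svb9 by a similar amount, with svb9 minus old at -0.33 ± 0.10 (limma adjusted p = 0.99992). On the arrays that share a date, fl26 minus svb9 was 0.26, fl26 minus old 0.02 and svb9 minus old -0.39. The second probe of Tmprss2 gave 0.43 and 0.33 in fl26, -0.03 and -0.13 in svb9, and -0.29 and 0.62 in old. It repeated the separation of the lines, whereas its old arrays fell on opposite sides of 0. Red signal on old array 1, the lower of them, was not well above background. The green level of this probe split by array number, at 8.87 to 9.05 on arrays 1 and 8.49 to 8.56 on arrays 2.

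Slc45a3 (prostein), a luminal membrane transporter gene, had log2 ratios of -0.43 and -0.41 in fl26, -0.05 and -0.27 in svb9, and -0.22 and -0.01 in old. Both fl26 arrays were below the 4 other arrays, and the svb9 and old arrays overlapped. The value of -0.22, on old array 1, came from red signal not well above background. In fl26 it was lower, at 0.748 of the young wild type level (log2 -0.42 ± 0.09, limma adjusted p = 0.272). Median centring in place of loess moved the fl26 value to -0.11 and the old value to -2.19. The means in svb9 and old were -0.16 ± 0.09 and -0.11 ± 0.09. Young wild type levels were 9.73 and 9.71 on the first-date arrays and 9.47 to 9.55 on the others, a spread that moves with the date. Red levels were 9.30 and 9.11 in fl26, 9.67 and 9.21 in svb9, and 9.26 and 9.54 in old, so the red levels of fl26 overlapped those of svb9 and of old, whereas the ratios did not. On arrays sharing a date, fl26 minus svb9 was -0.38 and fl26 minus old -0.19.

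Ndrg1, a gene of differentiation and of the response to low oxygen, had 0.34 and 0.25 in fl26, 0.07 and 0.15 in svb9, and -0.28 and -0.15 in old. The 3 groups did not overlap, with fl26 above svb9 and svb9 above old. Red levels followed the same order, at 8.06 ± 0.17 (SD, n = 2) in fl26, 7.89 ± 0.01 in svb9 and 7.53 ± 0.25 in old, where 1 array was not well above background. Young wild type lay between svb9 and old, at 7.76 ± 0.09 (SD, n = 6). The red levels of fl26 and svb9 differed by no more than the spread of fl26, and svb9 exceeded old by more than the spread of either. In fl26 the mean ratio was 0.30 ± 0.08 and in old -0.22 ± 0.08, with limma adjusted p = 0.309 and 0.377. The gap between fl26 and old, 1.43-fold (log2 0.51 ± 0.11), was the widest among comparisons of first probes and did not pass (limma adjusted p = 0.489). On the arrays of 1 date it was 0.53.

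Fkbp5 encodes a co-chaperone that holds steroid receptors and is itself switched on by them. Its first probe had 0.02 and -0.03 in fl26, 0.23 and 0.11 in svb9, and 0.31 and 0.24 in old. The old arrays were the higher pair, just above svb9, and the fl26 arrays sat at 0. In old the gene was 1.21-fold higher (log2 0.27 ± 0.07, limma adjusted p = 0.266), a value that turned to -1.76 when arrays were centred without loess. In svb9 it was 0.17 ± 0.07 and in fl26 0.00 ± 0.07.

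The other probes of Fkbp5 were dimmer and noisier. The second gave 0.10 and -0.02 in fl26, 0.13 and 0.10 in svb9, and 0.52 and -0.08 in old. The third gave 0.17 and -0.16, 0.06 and -0.20, and 0.20 and 0.76 in the same order. All 3 probes had a positive mean in old, from 0.22 to 0.48. For the dimmer probes, red signal on old array 1 was not well above background. Their values there were 0.52 and 0.20, against -0.08 and 0.76 on old array 2. The probe with the mean of 0.22 had old arrays on both sides of 0. Its only positive old value came from red signal not well above background. Young wild type levels of the first probe were 9.12 to 9.24 on arrays 1 and 9.27 to 9.35 on arrays 2.

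**Figure D1:**
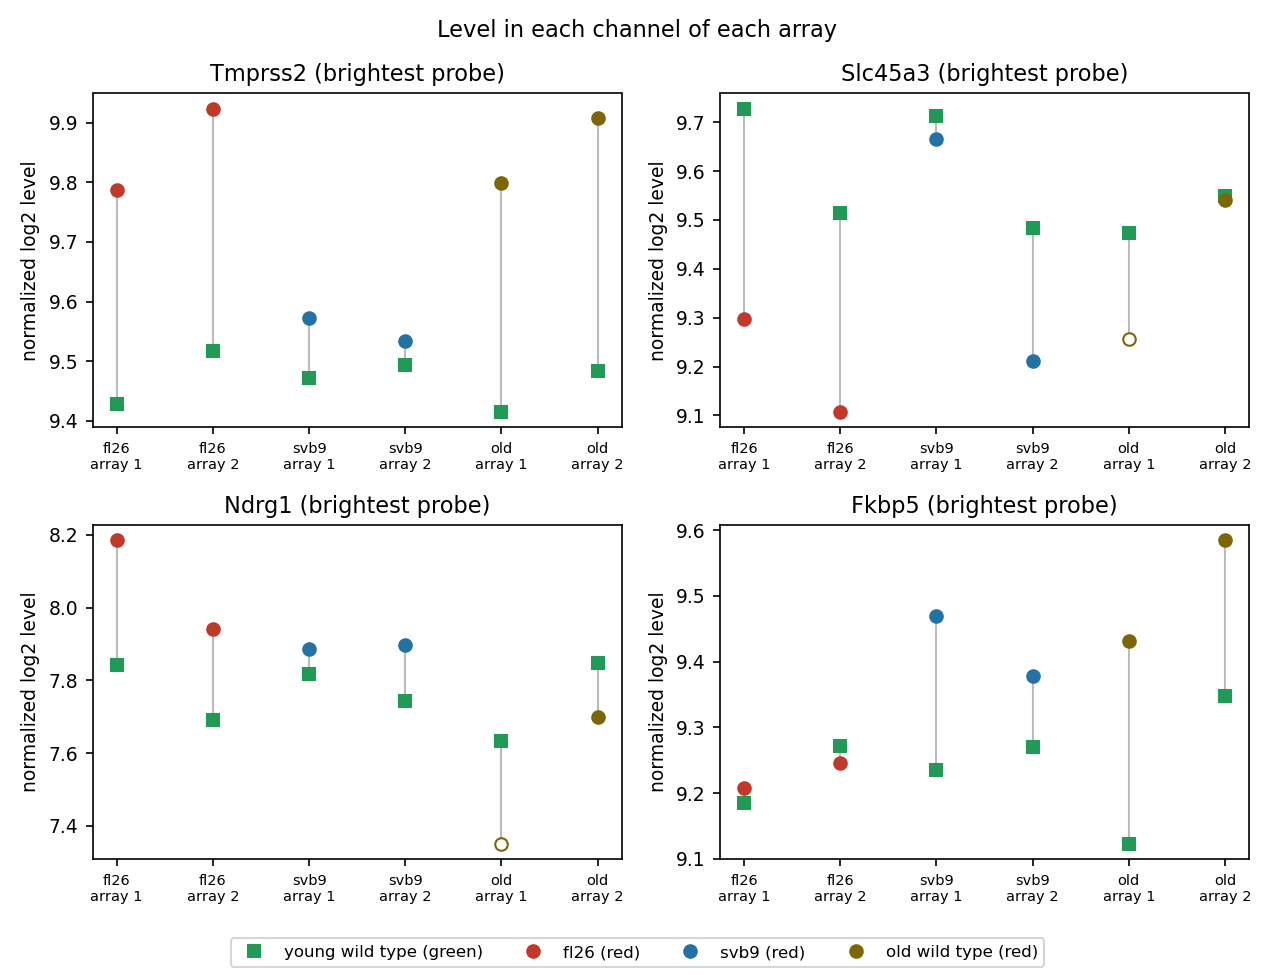
Normalized log2 level of the first probe of Tmprss2, Slc45a3, Ndrg1 and Fkbp5 in each channel of each array. Squares are young wild type (green channel), circles the group (red channel, open where not well above background), and a line joins the channels of an array. Each panel has its own vertical scale, which does not start at 0. For Tmprss2 the squares lie between 9.41 and 9.52 and the circles of fl26 and old stand at 9.79 or above.

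Homer2, a postsynaptic scaffold gene also active in epithelia, had -0.26 and 0.23 in fl26, -0.20 and 0.02 in svb9, and -0.29 and -0.13 in old on its first probe. Arrays 1 were lower than arrays 2 in each group, and the means were -0.02 ± 0.13, -0.09 ± 0.13 and -0.21 ± 0.13. The spread between arrays exceeded the mean in fl26 and svb9. In old both arrays were below 0 (SD 0.11), with a limma adjusted p of 0.589, and 0.216 with the array number as a term. The lower old value, on array 1, came from red signal not well above background. The second probe, near background, gave -0.07 and -0.11, -0.16 and -0.19, and -0.20 and -0.17. All 6 of its values were below 0, and red signal was well above background on 3 arrays. Its green level followed the array number, at 6.82 to 6.95 on arrays 1 and 6.67 to 6.71 on arrays 2.

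Acpp encodes prostatic acid phosphatase, the secreted enzyme long used as a marker of prostate epithelium. The first probe, which carries the accession of transcript variant 1, had 0.16 and 0.02 in fl26, 0.14 and 0.07 in svb9, and 0.16 and -0.04 in old. The groups overlapped throughout, and the means were 0.09 ± 0.08, 0.11 ± 0.08 and 0.06 ± 0.08 (limma standard errors). This was the steadiest first probe, with an SD of 0.08 over the 6 ratios, although its red signal on old array 1 was not well above background. Both other probes carry the accession of transcript variant 2 and were dim. The second ranged from -0.14 to 0.14 with red signal well above background on 2 arrays, and the third was not well above background on any array in either channel.

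Steap4, a metalloreductase gene of iron handling, had 0.40 and 0.14 in fl26, -0.05 and -0.06 in svb9, and -0.23 and -0.09 in old. The fl26 arrays were above 0 and the other 4 below it. Its mean in fl26 was 1.21-fold of young wild type (log2 0.27 ± 0.09, limma adjusted p = 0.397). Red signal was well above background on both fl26 arrays, 1 svb9 array and neither old array. The offset added to each intensity pulls ratios of so dim a probe towards 0. The deposited Feature Extraction log ratios, which have no offset, came to 0.72 and 0.39 in fl26. In svb9 they were -0.24 and -0.39, and in old -1.79 and -0.14, so they also varied widely between arrays. The second probe, too dim to test, had 0.37 on fl26 array 1, the only array where its red signal was well above background, and 0.05 on fl26 array 2.

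Markers of some other cell types also differed between the fl26 arrays. The 11 fibroblast markers had a median log2 ratio of 0.74 on fl26 array 1 and -0.12 on array 2, and 10 of 11 were higher on average in fl26. The summed red intensity of these markers was 10650 and 8255 in fl26, against 7691 and 9325 in green on the same arrays. Macrophage markers had medians of 0.36 and 0.05 in fl26, and basal markers 0.29 and 0.06. Smooth muscle markers had 0.04 and -0.05 in fl26, and skeletal muscle markers -0.13 and 0.13. On svb9 arrays 1 and 2 the medians were 0.22 and -0.06 for fibroblast, 0.06 and -0.03 for macrophage, and -0.04 and -0.11 for basal markers. On fl26 arrays 1 and 2 the first probe of Steap4 had 0.40 and 0.14, and that of Tmprss2 0.36 and 0.41. The part of these cell types in the Steap4 and Tmprss2 values was not tested.

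Both 5-alpha-reductases were weakly measured. Srd5a2, the isoenzyme known as the main one of the prostate, had 0.28 and -0.18 in fl26, 0.20 and 0.16 in svb9, and -0.11 and -0.39 in old. Only svb9 was above 0 on both arrays and only old below 0 on both. Their means were 0.18 ± 0.13 in svb9 and -0.25 ± 0.13 in old, and the fl26 mean of 0.05 ± 0.13 lay between arrays of opposite sign. In old the red signal was not well above background on either array. The difference from young wild type did not pass (limma adjusted p = 0.506), and its limma interval, -0.56 to 0.05, included 0. The means alone put young wild type at 1.08-fold of old or more, a bound that leaves out the spread between arrays. This bound sets the mean young wild type level, 6.92, against the higher of the probe's own value and the lowest level well above background on each array. The first probe of Steap4 and the second probes of Homer2 and Acpp were also not well above background in red on either old array, and their bounds were under 1, so no fold is given for them in old. Srd5a1, the isoenzyme of liver and skin, passed the background limit in green on 1 array and in red on 0, and its 6 ratios ran from -0.07 to 0.23. Another reductase gene, Srd5a3, had means of -0.06, -0.06 and 0.08 in fl26, svb9 and old.

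**Figure D2:**
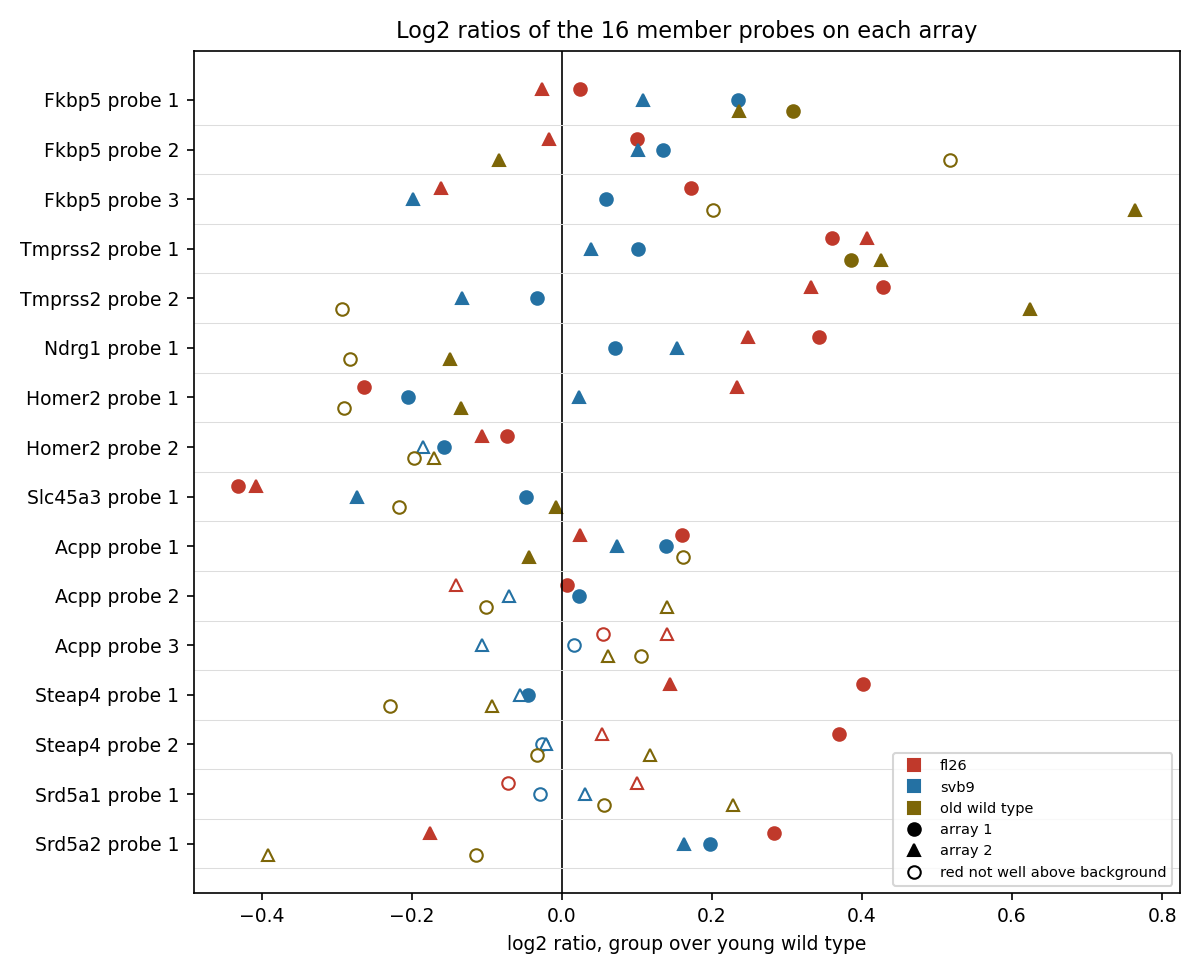
Log2 ratio over young wild type of each of the 16 member probes on each array, coloured by group, with circles for array 1, triangles for array 2 and open symbols where red signal was not well above background. Both probes of Tmprss2 place fl26 at 0.33 to 0.43 and svb9 at -0.13 to 0.10, and most open symbols belong to the old arrays.

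Counted together, 0 of 13 member probes passed the limma test in fl26, where 0.0503% of 27860 probes did (14 probes). In svb9 0 of 13 passed, where 0% of all probes did, and in old 0 of 13, where 0% of 27626 did. Between fl26 and svb9, fl26 and old, and svb9 and old, 0 of 13 passed in each, again with 0% of all probes. At an unadjusted p under 0.05 there were 4 member probes in fl26 (10.2% of all probes), 1 in svb9 (4.45%) and 5 in old (11.4%). Between the lines there were 2 (2.18%), while setting old beside fl26 gave 3 (7.74%) and beside svb9 also 3 (4.71%). With the array number as a term, 1 member probe passed in fl26, where 3.59% of all probes did, 0 in svb9 (0.0431%) and 1 in old (4.38%), the first probe of Tmprss2 in both cases. With the extraction date as a term 0 passed, against 0.42%, 0% and 0.0398%.

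The members differed in direction. In fl26, 5 of the 8 tested genes were above 0 and 3 below, with a median of 0.07. In svb9 the split was again 5 and 3, with a median of 0.09, and in old 3 and 5, with a median of -0.14. Taken over the 13 tested member probes in place of the first probes, the medians were 0.04, -0.02 and 0.02. The sign of the median in svb9 and old thus depended on which probes were counted. Over all tested probes the medians were 0.00, 0.00 and -0.02. Both arrays agreed on a positive sign for 5 of 13 probes in fl26 (27.3% of all probes), 6 in svb9 (27.5%) and 3 in old (24%). They agreed on a negative sign for 2 (26.1%), 4 (28%) and 6 (33.8%). Arrays of fl26 and svb9 did not overlap for 8 of 13 probes, against 24.5% of all probes. For fl26 and old it was 6 (32.9%), and for svb9 and old 6 (32.8%).

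Mean log2 ratios of the first probes lay between -0.42 and 0.38 in fl26, -0.16 and 0.18 in svb9, and -0.25 and 0.41 in old. Their limma standard errors ran from 0.07 to 0.13, pooled over the 6 arrays. Of the 24 intervals (95%, 8 genes in 3 groups), 23 lay within a 1.5-fold change either way. The exception was Slc45a3 in fl26, whose interval reached -0.64. Zero lay outside the interval for 4 genes in fl26, 0 in svb9 and 3 in old, before adjustment. These counts are of first probes alone. Among the other tested member probes, some intervals against young wild type passed 1.5-fold. They were those of the second Tmprss2 probe (up to 0.86 in fl26 and 0.64 in old) and the third Fkbp5 probe (up to 0.86 in old). For dim probes the offset narrows ratios and intervals alike.

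**Figure D3:**
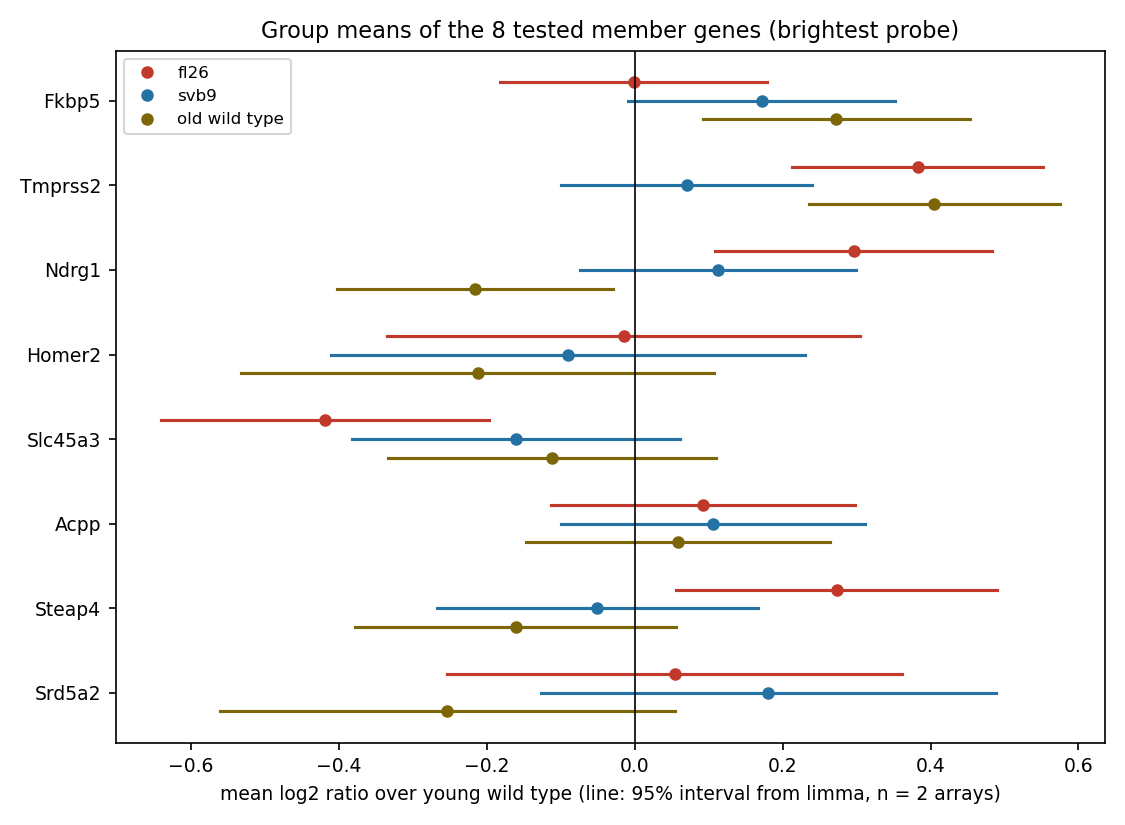
Mean log2 ratio over young wild type of the first probe of the 8 tested members in each group, with the 95% interval from limma (n = 2 arrays a group, spread pooled over 6). The svb9 intervals all include 0, and those of Tmprss2 in fl26 and old, Ndrg1 and Steap4 in fl26, and Fkbp5 in old lie above 0.

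Scaling moved some of these signs. Centred on the median without loess, the median of the tested probes was 0.35 and -0.04 in fl26, 0.29 and -0.17 in svb9, and -0.45 and -0.24 in old. Among the 6688 tested probes with a mean log2 intensity over 8 it reached -2.57 and -1.15 in old, and 0.85 and -0.26 in fl26. The values of -1.76 for Tmprss2 and Fkbp5 in old, both bright probes, stand beside those medians. With loess the medians of the bright probes lay between -0.06 and 0.01, and the Feature Extraction ratios kept Tmprss2 at 0.63 and 0.52 and Fkbp5 at 0.59 and 0.34 in old.

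The genes most like a member across the 6 arrays were sought for the 3 members whose ratios varied most. With Srd5a2 these were Osbpl3 (Pearson r = 0.996) and Isl2 (0.989), with Ndrg1 Aass (0.995) and Tmem167 (0.993), and with Steap4 Smcr8 (0.991) and Rarres2 (0.989). Aass had 0.38 and 0.35 in fl26, 0.13 and 0.24 in svb9, and -0.17 and -0.06 in old. It shares the order of groups with Ndrg1 because it was picked by correlation with it on these same ratios. Rarres2 had 0.67 and 0.47 in fl26, 0.20 and 0.26 in svb9, and 0.01 and 0.20 in old. These were taken from 16133 genes, of which 270, 186 and 139 had r over 0.9 with Srd5a2, Ndrg1 and Steap4. The 6 arrays share the dye orientation and a comparison with young wild type, and the coefficients are a description.

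Of 71 other listed genes known to respond to androgen, 65 were tested: 38 were higher and 27 lower in fl26 (median 0.04), 34 and 31 in svb9 (median 0.01), and 32 and 32 in old (median 0.00; 1 had no old value). The limma test called 0 in each, with 18 (27.7%), 6 (9.23%) and 9 (14.1%) at an unadjusted p under 0.05, against 11.6%, 5.1% and 12.6% of all tested genes. Over all 17568 tested genes the split was 8895 and 8673, 8760 and 8808, and 7759 and 9643. With the array number as a term, 6 were called higher and 5 lower in fl26, 0 in svb9, and 2 higher and 1 lower in old. Over all tested genes that fit called 390 higher and 362 lower in fl26, 9 and 1 in svb9, and 526 and 359 in old.

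The largest log2 ratios of this list in fl26 were B4galt1, a galactosyltransferase, at 0.74 ± 0.17 and Acsl3, which activates fatty acids, at 0.66 ± 0.07 (limma adjusted p = 0.304 and 0.0996). Azgp1, a secreted lipid-mobilizing protein, had -0.74 ± 0.13 and Mme, the membrane peptidase neprilysin, -0.73 ± 0.23. With the array number as a term all 4 passed, with adjusted p from 0.0146 to 0.0328. Acsl3 had 0.67 and 0.65 on the fl26 arrays, 0.15 and 0.06 on the svb9 arrays, and 0.00 and 0.11 on the old arrays, so the fl26 pair stood apart from all others. In svb9 the genes named were B4galt1 (0.59 ± 0.17), Ell2 (0.41 ± 0.14), Lman1 (-0.35 ± 0.09) and Stk39 (-0.34 ± 0.11). In old they were Lifr, a receptor of leukaemia inhibitory factor (0.90 ± 0.10), Arid5b (0.49 ± 0.12), Hpgd, which inactivates prostaglandins (-0.61 ± 0.18), and Dnajb9 (-0.46 ± 0.25). Lifr lay at 0.74 and 1.06 on the old arrays and from 0.00 to 0.25 on the other 4 (limma adjusted p = 0.0763, or 0.00538 with the array number as a term). B4galt1, Azgp1 and Ell2 lacked 1 old array, where the spot was marked as an outlier, so their spread rests on 5 arrays. The other genes called in fl26 with the array number as a term included Spdef, a luminal lineage factor (-0.64 ± 0.09), and Gsr, the glutathione reductase gene (0.62 ± 0.12), both named after their values were seen. In old those calls were Lifr, B4galt1 (on its 1 array) and Idi1, a gene of sterol synthesis (-0.44 ± 0.20), the last also named after its value was seen.

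Foxa1, the pioneer factor that opens chromatin for the hormone's nuclear receptor, had 1.05 and 0.58 in old, against 0.11 and -0.47 in fl26 and 0.18 and 0.08 in svb9. Its old mean of 0.82 ± 0.16 had a limma adjusted p of 0.206, and 0.0153 with the array number as a term. Foxa1 is also one of the luminal markers, whose medians in old are given above, and the part of the luminal share in this value was not tested. Hoxb13, a cofactor of the receptor, had 0.21 ± 0.19 and 0.16 ± 0.19 in fl26 and svb9, and 0.48 on the only old array with a value. Pbsn (probasin), the classic androgen-driven secretion of the rodent prostate, split by array number, at -0.67 and 0.95 in fl26, -1.34 and 1.26 in svb9, and 0.56 on old array 2. Its spot on old array 1, and that of Hoxb13 on old array 2, were marked as outliers and left out. The red spot of Pbsn was saturated on fl26 array 1, so its value there is not exact. With the array number as a term its old value turned from 0.56 to -0.50.

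Of 27 tested genes of the receptor's chaperones and cofactors, 16 were higher and 11 lower in fl26, 12 and 15 in svb9, and 9 and 17 in old. The limma test called 0, and with the array number as a term 4 were called higher in fl26 (Hspa8, Gata2 and, named after their values were seen, Stip1 at 0.61 ± 0.20 and Ncoa4 at 0.57 ± 0.10) and 1 in old (Foxa1). These are 14.8% and 3.85% of the list, where that fit called 2.22% and 3.02% of all tested genes higher. In fl26 the genes named were Hspa8, a constitutive chaperone (0.76 ± 0.22, fitted on the 3 arrays whose spots were kept), Gata2, a partner of the receptor (0.71 ± 0.23), Fhl2 (-0.32 ± 0.18) and Ncor1, a corepressor (-0.31 ± 0.18). Gata2 had 0.71 and 0.70 in fl26, -0.24 and 0.36 in svb9, and 0.04 and 0.97 in old. In svb9 they were Stip1 (0.33 ± 0.20), Dnaja1 (0.21 ± 0.12), Pias2 (-0.54 ± 0.27) and Ncoa3, a coactivator (-0.32 ± 0.13). In old, beside Foxa1, they were Gata2 (0.50 ± 0.23), Pias2 (-0.66 ± 0.27) and Fhl2 (-0.30 ± 0.18). Values on the arrays of fl26 overlapped those of old for Gata2, Fhl2 and Pias2.

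Of 27 listed genes of androgen synthesis and breakdown, 18 were tested, with 6 higher and 12 lower in fl26 (median -0.05), 8 and 10 in svb9 (median -0.01), and 10 and 8 in old (median 0.01). The limma test called 0 in any group, with 2 (11.1%) at an unadjusted p under 0.05 in each, against 11.6%, 5.1% and 12.6% of all tested genes in fl26, svb9 and old, and 0 with the array number as a term. In fl26, Por, the electron donor of cytochromes P450, had 0.36 ± 0.12 and Hsd3b2 0.11 ± 0.08, while Sts, the steroid sulfatase, had -0.43 ± 0.14 and Hsd17b7 -0.27 ± 0.13. In svb9 Por had 0.32 ± 0.12, Hsd3b2 0.15 ± 0.08, Hsd17b7 -0.39 ± 0.13 and Hsd17b10 -0.03 ± 0.10. In old, Cyp19a1 (aromatase) had 0.27 ± 0.10 and Hsd17b11 0.10 ± 0.09, against -0.27 ± 0.09 for Hsd17b4 and -0.08 ± 0.07 for Hsd17b1. Hsd3b2, Cyp19a1 and Hsd17b1 were well above background in red on 2 arrays each.

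Relatives of the members (other FKBP, STEAP, TMPRSS, NDRG, HOMER, SLC45 and acid phosphatase genes) were also divided in sign. Of 31 tested, 12 were higher and 19 lower in fl26, 16 and 15 in svb9, and 15 and 16 in old, and limma called 0. In fl26, Fkbp2 had 0.39 ± 0.27 and Tmprss4 0.36 ± 0.17, against -0.53 ± 0.10 for Acp5, the phosphatase of macrophages and osteoclasts, and -0.39 ± 0.20 for Steap1. In svb9, Slc45a2 had 0.23 ± 0.11, Acp7 0.17 ± 0.09, Steap1 -0.51 ± 0.20 and Acp1 -0.34 ± 0.13. In old, Steap3 had 0.54 ± 0.12 and Acp7 0.42 ± 0.09, while Acp6 had -0.54 ± 0.13 and Acp1 -0.50 ± 0.13. At an unadjusted p under 0.05 there were 2 (6.45%) in fl26, 2 (6.45%) in svb9 and 8 (25.8%) in old, against 11.6%, 5.1% and 12.6% of all tested genes. With the array number as a term Acp5 passed in fl26 and Steap3, Acp6 and Acp1 in old. The other gene to pass in old, named after its value was seen, was Slc45a2 (0.37 ± 0.11), a relative of Slc45a3 known for pigmentation. In old that fit called 6.45% of the relatives higher, against 3.02% of all tested genes. Of all 17568 tested genes it called 362 lower in fl26 and 359 lower in old, against 1 and 2 relatives.

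Ndrg1 and Fkbp5 were also set beside genes of their other known signals. Of 20 tested genes of the response to low oxygen, 12 were higher and 8 lower in fl26, 15 and 5 in svb9, and 12 and 7 in old (1 had no old value). In fl26 Adm, the vasodilator adrenomedullin, had 0.46 ± 0.11 and P4ha1 0.29 ± 0.08, with Higd1a at -0.40 ± 0.15 and Ldha, the lactate dehydrogenase gene, at -0.26 ± 0.13. Ldha was fitted on the 3 arrays whose spots were kept. In svb9 Adm had 0.35 ± 0.11, Pgk1 0.33 ± 0.08, Higd1a -0.26 ± 0.15 and Pfkfb3 -0.12 ± 0.09. In old the glucose transporter Slc2a1 had 0.39 ± 0.13 and Car9 0.22 ± 0.14, with Higd1a at -0.46 ± 0.15 and Aldoc at -0.23 ± 0.08.

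Of 14 genes that respond to glucocorticoids, 10 were higher and 4 lower in fl26 (median 0.14), 6 and 8 in svb9 (median -0.01), and 5 and 8 in old (median -0.02). The transcription factor Cebpb had 0.57 ± 0.09 in fl26 and Zfp36, which destabilizes inflammatory messages, 0.47 ± 0.13, against -0.25 ± 0.08 for Nfkbia. In svb9 Zfp36 had 0.24 ± 0.13, Cebpb 0.23 ± 0.09, Cebpd -0.37 ± 0.29 and Mt2 -0.17 ± 0.11. In old Zfp36 had 0.36 ± 0.13 and Dusp1 0.30 ± 0.10, with Cebpd at -0.55 ± 0.29 and Gadd45b at -0.23 ± 0.15. The limma test called 0 genes of both lists in every group. At an unadjusted p under 0.05 there were 6 (42.9%), 0 and 3 (23.1%) glucocorticoid genes in fl26, svb9 and old. The low-oxygen list had 4 (20%), 2 (10%) and 5 (26.3%), against 11.6%, 5.1% and 12.6% of all tested genes. With the array number as a term, Adm, Cebpb, Zfp36 and Mt2 (0.45 ± 0.11), which encodes a metallothionein, were called higher in fl26. These are 5% of the low-oxygen list and 21.4% of the glucocorticoid list, where that fit called 2.22% of all tested genes higher. In old that fit called Aldoa, an enzyme of glycolysis (0.77 ± 0.11), higher and Higd1a and Cebpd lower. Over all tested genes it called 526 higher and 359 lower there. Mt2 and Aldoa are named here after their values were seen, and each lacked 1 array, marked as an outlier. The first probe of Fkbp5 had means of 0.00, 0.17 and 0.27 in fl26, svb9 and old (limma adjusted p = 0.266 in old). The medians of the glucocorticoid list were 0.14, -0.01 and -0.02 in the same order. A link between Fkbp5 and this list was not tested.

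**Figure D4:**
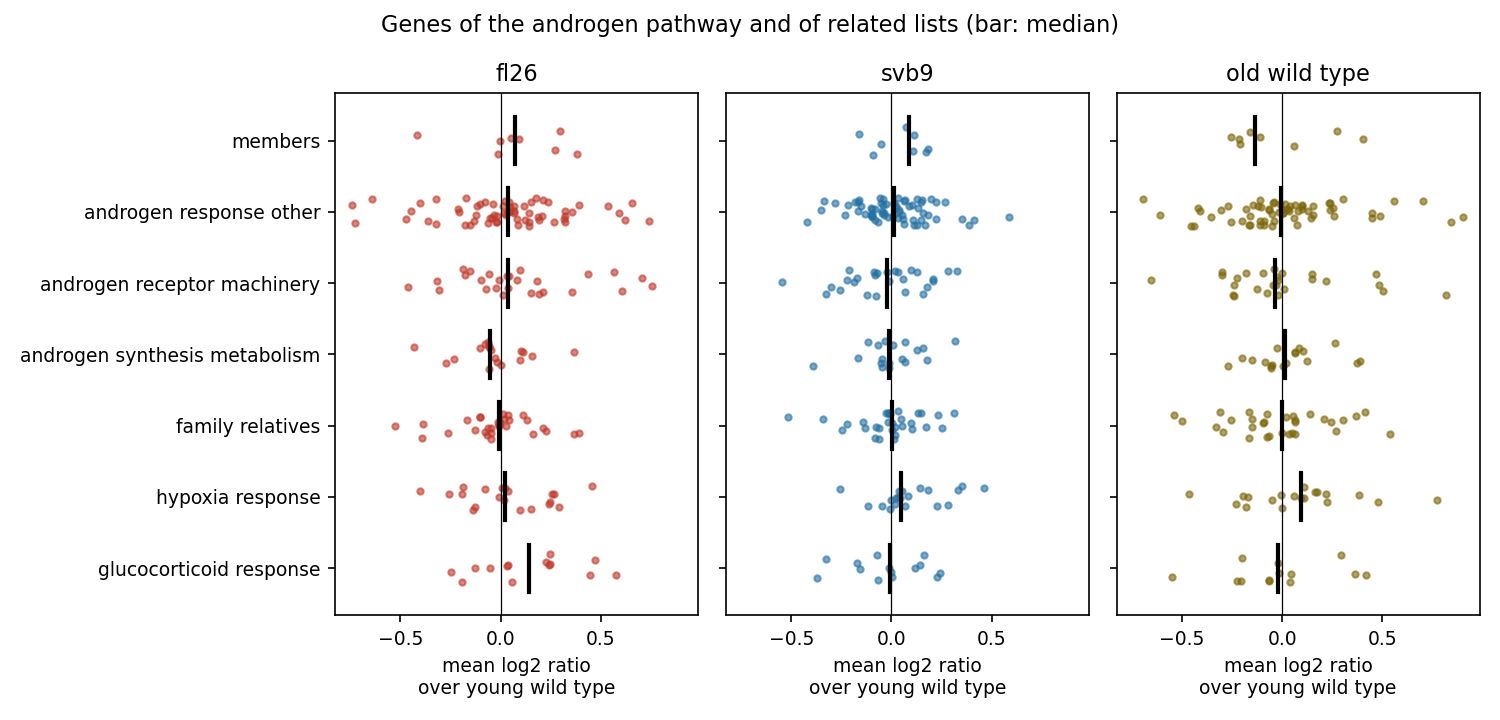
Mean log2 ratio over young wild type of every tested gene (points, brightest probe) of the members and of the 6 pathway lists in the 3 groups, with a bar at each median. Points are spread vertically at random within a list. The medians lie between -0.14 and 0.14 in every list and group, while single genes reach 0.90 (Lifr in old) and -0.74 (Azgp1 in fl26).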

How the data were processed

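Per the file headers, spots were measured by the scanner software (Agilent Feature Extraction, A.7.5.1). For each spot and channel the deposited files give an unnormalized mean intensity and a median background. They also give a log10 ratio (red to green) that the software made after subtracting a fitted spatial surface, with its separate background correction off, and normalizing the dyes by linear scaling and LOWESS, per the file headers. Deposited flags mark spots well above background, saturated or outlying.

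From these, control spots (2256 of 43790) and outlier spots were removed, background was corrected by normexp (offset 50), arrays were normalized by loess (span 0.3) and replicate spots averaged, in R 4.3.3 with limma 3.58.1. Levels per channel were also quantile-scaled between arrays on their mean intensity. A model of 3 group means over 6 arrays was fitted to 27860 probes, with 2-sided moderated tests and Benjamini-Hochberg adjustment over all of them at 0.05. The spread of young wild type pools that arrays may share is not in a test against 0, and the number of arrays limits precision. Symbols came from RefSeq (GRCm38.p6), 20716 through the systematic name and 106 through an accession.

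The members and lists were chosen with earlier results of these data known. Named genes were all members, 6 fixed genes (some are not reported here), the 2 most correlated genes of the 3 most variable members, and up to 2 higher and 2 lower genes of each list with 1 sign on both arrays. The labels number the duplicates 1 and 2 without calling them pairs. Deviations of same-numbered arrays correlated at 0.61 (fl26 and svb9), 0.33 (fl26 and old) and 0.17 (svb9 and old), so a fit with the number as a term is given where it changes a call. Feature extraction fell on 3 dates, each holding 2 groups: arrays 1 of fl26 and svb9, fl26 array 2 with old array 1, and svb9 array 2 with old array 2. The model was run on simulated data with independent noise on each array and planted changes larger than the member ratios. That run does not cover deviations shared by same-numbered arrays.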

Additional observations from a re-analysis of the deposited data

Results flagged for a closer look

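The first probe of Steap4 had its highest young wild type level on old array 1, at 6.44, while the next highest was 6.32 and the lowest 6.26. The gap took 0.684 of the whole range over the 6 arrays, past Dixon's 95% limit for a single value far from the others. Chance marks about 1 in 20 such groups. On that array the log2 ratio of Steap4 was -0.23, against -0.09 on old array 2. The level is dim, and red signal on that array was not well above background.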

How the results depend on the processing

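Of 720 alternative values of member log2 ratios, 678 kept their direction and their side of the threshold, 2 gained a call and 40 changed sign, all 40 uncalled. With 2 arrays a group, dim red signal on the old arrays and no dye swap, differences as small as those of the members could not be settled. Larger ones also went uncalled, such as Lifr in old at 0.90 (limma adjusted p = 0.0763). The 2 gains were Tmprss2 with the replicate block, at 0.38 in fl26 and 0.41 in old. The block, which treats the array numbers as pairs, raised the count of called probes from 14 to 1001 in fl26, from 0 to 12 in svb9 and from 0 to 1211 in old. It gave 10 between fl26 and svb9 and 25 between fl26 and old. Members called came to 1 in fl26 and 1 in old, and pathway genes to 20 and 11. It changed no other member call. With extraction date as a term, 117 probes and 1 pathway gene were called in fl26, 11 probes in old, 2 between fl26 and svb9 and 5 between fl26 and old. Homer2 in fl26 turned to 0.0487, Acpp between fl26 and old to -0.0452 and Steap4 between svb9 and old to -0.00039.

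Median centring in place of loess left 0 calls in fl26. Fkbp5, Tmprss2 and Acpp in old turned to -1.76, -1.76 and -0.63, and Fkbp5 and Homer2 in fl26 to 0.30 and 0.25. For fl26 minus svb9 it gave 0.10 for Fkbp5, 0.0213 for Slc45a3, 0.125 for Acpp and 0.060 for Srd5a2. For fl26 minus old it gave 2.06 for Fkbp5, 2.45 for Tmprss2 and 2.07 for Slc45a3, and for svb9 minus old 1.95, 1.85 and 2.05. The intensity-dependent medians given with the scaling move with these values. Feature Extraction ratios called 6 probes in fl26 and turned Acpp to -0.11 between fl26 and old and to -0.10 between svb9 and old. Without background correction 2 probes were called in fl26, and Tmprss2 between fl26 and old became 0.0253. Keeping outlier spots called 8 probes in old, with 0.0690 for Tmprss2 between fl26 and old and 0.0228 for Slc45a3 between svb9 and old. The strict filter called 29 probes in old and 3 between fl26 and old. The cause of these changes was not tested.

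Leaving out 1 array at a time called 0 to 1 probes in fl26 and 0 to 2 in old, the 2 without either fl26 array. No member was called. Signs changed within -0.0260 to 0.0239 for Fkbp5, -0.26 to 0.23 for Homer2 and -0.18 to 0.28 for Srd5a2 in fl26, -0.205 to 0.0233 for Homer2 in svb9, and -0.0431 to 0.161 for Acpp in old. Between fl26 and svb9 the ranges were -0.17 to 0.32 for Homer2, -0.0821 to 0.0547 for Acpp and -0.36 to 0.10 for Srd5a2. Between fl26 and old they were -0.0452 to 0.00111 for Tmprss2, -0.0508 to 0.445 for Homer2 and -0.0688 to 0.135 for Acpp. Between svb9 and old they were -0.162 to 0.0636 for Slc45a3 and -0.0550 to 0.149 for Acpp.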
